A study of Rattus norvegicus with 9 samples.

Results

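The genes described here encode enzymes that make and burn acetyl-CoA in the mitochondrion. They are Pdha1 and Pdhb (pyruvate dehydrogenase), Idh3a (isocitrate dehydrogenase), Sucla2 (succinyl-CoA synthetase), Sdha and Sdhd (succinate dehydrogenase), Fh1 (fumarate hydratase) and Mdh2 (malate dehydrogenase). These 8 genes were listed by name and looked up by symbol in the deposited tables, and all 8 passed the filter on low values that left 14117 loci to be tested. Rat hearts were sequenced in 9 libraries from 3 groups, all of the Sprague-Dawley strain. The sham group (3 libraries) is adult left ventricle after surgery without a constriction. The TAC group (3 libraries) is adult left ventricle after transverse aortic constriction, which narrows the aorta and makes the ventricle pump against a higher pressure. The fetal group (3 libraries) is ventricle from embryonic day 18, and its titles name litters. Trizol was used for fetal RNA and a column kit for adult RNA, and only the adult tissue is limited to the left ventricle, so age, region and isolation cannot be told apart. Adult age and the time from surgery to sampling are not given in the sources used here, nor is whether each adult library is a separate animal, so p-values measure only the spread between these libraries, which may be technical.

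Pyruvate dehydrogenase converts pyruvate from glycolysis into acetyl-CoA and so links glucose and lactate use to the mitochondrion. The tricarboxylic acid cycle then oxidises acetyl-CoA, whether it comes from pyruvate or from fatty acids, and hands the electrons to the respiratory chain as NADH and reduced flavin. The fetal heart relies largely on glucose and lactate, the adult heart mostly on fatty acids, and the overloaded adult heart is often described as turning back towards fetal fuel use, which is the question these 3 groups address for the cycle.

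Levels are given as rescaled FPKM. FPKM stands for fragments per kilobase and per 1000000 fragments, but the deposited values carry a further constant in each library. They were brought to a common scale with a mean library total of 1000000. The levels are thus per length and can be compared between genes, but are not in the original unit. Changes are differences of log2(rescaled FPKM + 1). The confidence bounds in the files imply roughly 8.29 to 33.58 fragments per library in units of 1000000. In replicate 1 of each group the shortest assembled feature was 43 nt, against 63 nt in the other libraries. The labels name no batch, so whether this marks a separate preparation is not known. Of 15 cardiomyocyte marker genes only Actc1 and Mb had a symbol in the joined tables. Actc1, the cardiac actin, lay between 14028 and 135422 in all 9 libraries, and fetal replicate 2 stood far above the rest. Mb (myoglobin) lay between 18582 and 24804 in the adult libraries and between 649.5 and 1479 in the fetal ones.

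In fetal ventricle 7 of the 8 genes were called lower than in sham (limma adjusted p below 0.05), and the same 7 were called lower than in TAC. Idh3a was lower in both comparisons without a call. None of the 8 was called in TAC against sham. Over all tested loci, 23.2% were called lower and 22.6% higher in fetal against sham. The corresponding shares for fetal against TAC were 23.0% lower and 22.9% higher. In TAC against sham, 0.0142% of loci were called in either direction. The median log2 change of the 8 genes was -1.05 in fetal against sham and -0.98 in fetal against TAC, where all loci had medians of 0.04 and 0.03. It was -0.12 in TAC against sham, where all loci had -0.01. The 3 comparisons share libraries in pairs (fetal, TAC or sham) and are not independent. No fetal value of any of the 8 genes overlapped with a sham or a TAC value. The share of all loci with such a separation is not given here, so this is a description only. The sum of the 8 levels was 6292 ± 417.3 (SD, n = 3) in sham, 6150 ± 323.8 in TAC and 2959 ± 286.3 in fetal, without overlap between fetal and adult libraries. These are bulk tissues, so fewer cells of a type and less RNA per cell cannot be told apart.

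**Figure D1:**
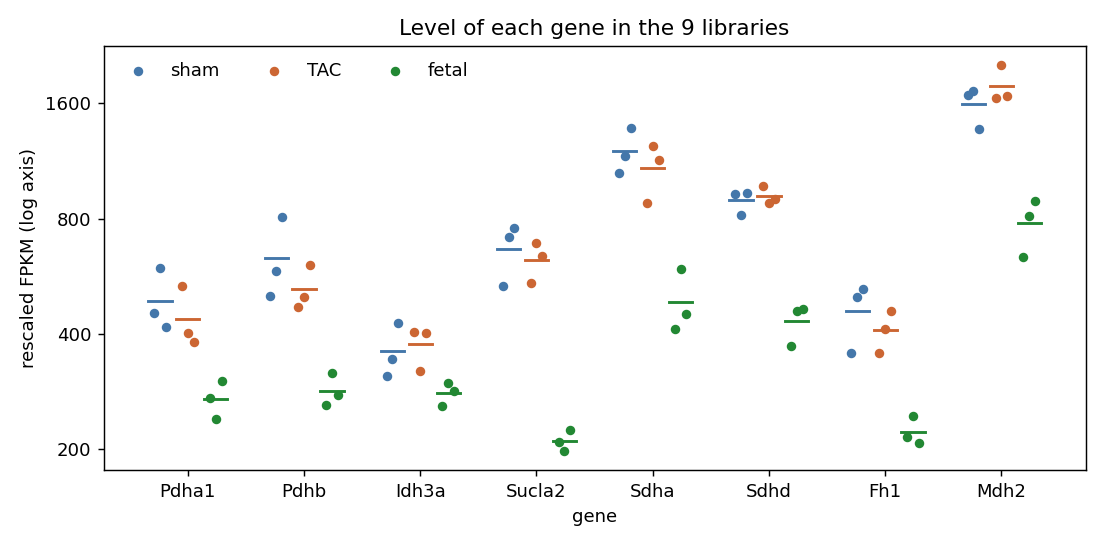
Rescaled FPKM (log axis) of each of the 8 genes, with 1 point per library, 3 libraries per group and a bar at the group mean. The 3 fetal points lie below the 6 adult points for every gene, with the smallest gap for Idh3a and the largest relative gap for Sucla2, while sham and TAC points overlap for every gene.

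The test was limma across all 14117 loci with Benjamini-Hochberg adjustment and a threshold of 0.05. With replicates 2 and 3 alone, 7 genes were called in fetal against sham and 6 in fetal against TAC. Over all 8 genes, called or not, the log2 changes there ran from -1.80 to -0.40 and from -1.65 to -0.30. The single pair of replicate 1 libraries, which has no test, gave -1.40 to -0.25 and -1.38 to -0.64. Equal library totals and an equal upper quartile, used in place of the median of ratios, moved the median of all loci in fetal against TAC to 0.24 and 0.27 and in fetal against sham to 0.19 and 0.22. Under the median of ratios 49.9% of the called loci were higher in fetal against TAC, under equal totals 61.3% and under an equal upper quartile 63.8%, and in fetal against sham these shares were 49.3%, 56.9% and 59.9%. All 8 genes were still lower in fetal than in either adult group under both scalings.

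**Figure D2:**
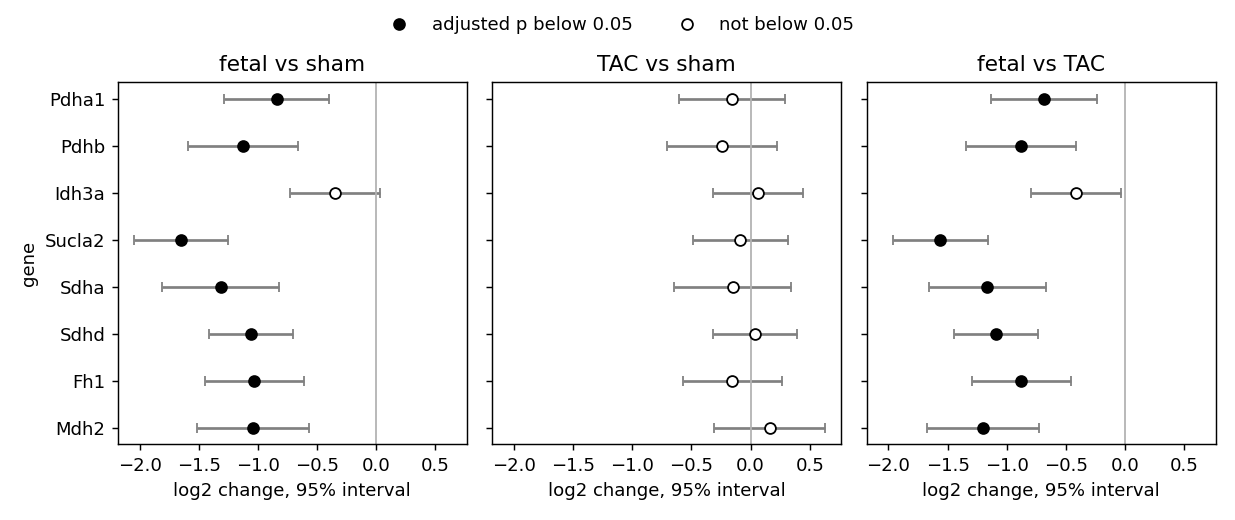
Log2 change of each gene in the 3 comparisons with its 95% confidence interval from limma, filled where the adjusted p is below 0.05. In both fetal comparisons 7 of 8 points are filled and negative and Idh3a is open, while in TAC against sham every interval includes 0.

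Promoter sequence was taken from RefSeq (build GRCr8), which gave a window from 250 bases before to 50 bases after the start for 7 of the 8 genes, with Fh1 listed there as Fh. No window was matched for Idh3a. The 250 bases before the start are printed for the pair of pyruvate dehydrogenase subunits, which act in the same enzyme, for Sucla2, which had the largest fetal difference, and for Mdh2, which had the highest level. They are written 5′ to 3′ on the strand of the gene, and capitals mark matches to the motifs named after them.
Pdha1, chrX:38508908-38509157, plus strand: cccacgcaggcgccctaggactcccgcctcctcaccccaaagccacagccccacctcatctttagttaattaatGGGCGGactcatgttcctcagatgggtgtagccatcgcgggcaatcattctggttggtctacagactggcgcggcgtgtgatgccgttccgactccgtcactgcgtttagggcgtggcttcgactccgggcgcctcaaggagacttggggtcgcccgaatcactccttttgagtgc
Pdhb, chr15:19182539-19182788, plus strand: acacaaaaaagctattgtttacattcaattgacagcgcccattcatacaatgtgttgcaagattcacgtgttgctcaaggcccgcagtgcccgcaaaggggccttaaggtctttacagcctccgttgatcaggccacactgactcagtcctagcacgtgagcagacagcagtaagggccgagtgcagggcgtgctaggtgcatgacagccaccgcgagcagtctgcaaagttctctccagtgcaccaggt
Sucla2, chr15:55161644-55161893, plus strand: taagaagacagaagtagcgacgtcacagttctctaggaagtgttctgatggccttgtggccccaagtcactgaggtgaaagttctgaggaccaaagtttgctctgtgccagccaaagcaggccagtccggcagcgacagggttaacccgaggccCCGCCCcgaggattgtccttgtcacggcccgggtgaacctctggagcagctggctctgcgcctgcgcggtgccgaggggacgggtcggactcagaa
Mdh2, chr12:26543842-26544091, minus strand: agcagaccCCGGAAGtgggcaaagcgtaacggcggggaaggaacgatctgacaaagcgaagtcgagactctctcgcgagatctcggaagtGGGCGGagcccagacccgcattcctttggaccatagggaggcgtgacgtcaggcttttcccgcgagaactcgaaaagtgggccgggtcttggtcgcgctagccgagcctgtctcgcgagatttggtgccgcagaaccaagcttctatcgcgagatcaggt

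Exact matches on either strand were counted in the 300-base windows and set beside all 33469 windows in the same table. The SP1 motif CCGCCC was found in 5 of the 7 windows (Pdha1, Sucla2, Sdhd, Fh1 and Mdh2) and in 33.1% of all windows. The ETS and GABP motif CCGGAAG was found in 2 (Sdhd and Mdh2) and in 8.75% of all. The NF-Y motif CCAAT was found in 2 (Sdha and Fh1) and in 37.5% of all. The half-site AAGGTCA of estrogen-related receptors was found in the Sdhd window alone, on the minus strand and 35 bases after the start, and in 4.61% of all windows. The NRF1 motif TGCGCATGC was found in none of the 7 and in 1.39% of all. No match of a motif overlapped with another in these 7 windows, and Pdhb held no match to any of the 5. A match is a run of letters, not a measured binding site.

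Pdha1 and Pdhb encode the alpha and beta subunits of the decarboxylating enzyme of the pyruvate dehydrogenase complex. The phosphorylation sites that switch the complex off lie on the alpha subunit. Pdha1 lies on chromosome X of rn4, between 55899440 and 55913319. Its level was 452.8, 593.2 and 417.5 rescaled FPKM in sham replicates 1 to 3, then 531.4, 402.4 and 379.6 in the TAC libraries and 270.6, 239.3 and 299.8 in the fetal libraries. The highest fetal library thus lay below the lowest adult one, TAC replicate 3, while TAC and sham values were interleaved. The log2 change was -0.84 (SE 0.20, limma adjusted p = 0.00788) in fetal against sham and -0.69 (adjusted p = 0.0198) in fetal against TAC. Of the 7 genes called, Pdha1 lost its call most often over the alternatives. The call against TAC was lost without TAC replicate 1 (adjusted p = 0.0608), without fetal replicate 2 (0.0646), with replicates 2 and 3 alone (0.123), and with equal library totals (0.182) or an equal upper quartile (0.105). The call against sham was lost with equal library totals (0.0587). Part of the Pdha1 value came from newly assembled transcripts. They held 61.5% in fetal replicate 1, 49.9% in fetal replicate 2, 68.5% in sham replicate 2 and 12.3% in TAC replicate 3. Counted on the named reference transcript alone, Pdha1 was called in neither fetal comparison (adjusted p = 0.269 and 0.14), with log2 changes of -0.91 and -1.22.

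Pdhb lies on chromosome 15 of rn4, between 18737449 and 18743390. Its level was 500.6, 584.1 and 805.1 in sham, then 470.4, 498.2 and 603.5 in the TAC libraries and 259.8, 315.6 and 275.5 in the fetal libraries. Sham replicate 3 was well above the other adult libraries, and the fetal libraries lay close together. Transcripts assembled there held 44.8% of Pdhb in TAC replicate 3 and 46.3% in fetal replicate 2. Its log2 change was -1.12 (SE 0.20, adjusted p = 0.00229) in fetal against sham and -0.88 (adjusted p = 0.00776) in fetal against TAC, the second of which was not called on reference transcripts alone (adjusted p = 0.141). The ratio of Pdhb to Pdha1, which does not depend on the scale of a library, was 1.34 ± 0.51 in sham, 1.24 ± 0.35 in TAC and 1.07 ± 0.22 in fetal (SD, n = 3). It differed by -0.28 on the log2 scale between fetal and sham (exact permutation test, two-sided, p = 0.5), by -0.19 between fetal and TAC (p = 0.7) and by -0.09 between TAC and sham (p = 0.9). With 3 against 3 libraries this test cannot go below 0.1. The ranges of the ratio overlapped in all 3 comparisons.

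Idh3a encodes the catalytic alpha subunit of the NAD-dependent isocitrate dehydrogenase, a regulated, rate-controlling step of the cycle. Idh3a lies on chromosome 8 of rn4, between 58135412 and 58155798. Its level was 309.4, 343.6 and 425.3 in sham, then 404.0, 319.5 and 401.2 in the TAC libraries and 259.2, 296.7 and 283.2 in the fetal libraries. The fetal values lay below all adult values, but the gap to sham replicate 1 was small. Its log2 change was -0.35 (95% interval -0.73 to 0.03, adjusted p = 0.119) in fetal against sham and -0.42 (-0.80 to -0.04, adjusted p = 0.0716) in fetal against TAC. Idh3a was therefore the only gene of the 8 not called in either fetal comparison, and it was called in none of the 22 alternatives of either. On reference transcripts alone its difference between fetal and sham was 0.0053. Newly assembled transcripts, which that setting leaves out, held 24.2% to 42.4% of the Idh3a value in 5 of the 9 libraries. They were 2411 to 2507 nt long and came from all 3 groups, and whether they are 1 shared form was not tested.

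Sucla2 encodes the beta subunit of the ATP-forming succinyl-CoA synthetase, the step of the cycle that makes a high-energy phosphate directly. Sucla2 lies on chromosome 15 of rn4, between 54214241 and 54267828. Its level was 533.5, 713.9 and 753.7 in sham, then 543.4, 689.9 and 639.6 in the TAC libraries and 208.3, 197.3 and 224.4 in the fetal libraries. The fetal libraries lay within a narrow band far below the lowest adult library. The fetal mean was 31.5% of the sham mean, the lowest such percentage among the 8 genes. The fitted log2 change came to -1.65 (SE 0.18, adjusted p = 0.000134) in fetal against sham and -1.56 (adjusted p = 0.000183) in fetal against TAC, and both calls held in all 22 alternatives. The symbol Sucla2 was present in all 9 libraries, unlike the other symbols, and all of its value came from a pair of named transcripts. The transcript ENSRNOT00000065195 held most of it and had a level of 521.7 ± 115.0 in sham, 432.5 ± 62.9 in TAC and 175.4 ± 8.97 in fetal. The longer transcript ENSRNOT00000023516 had 145.3 ± 18.2 in sham, 191.8 ± 11.8 in TAC and 34.6 ± 8.02 in fetal. The share of the longer transcript was 25.8%, 23.3% and 17.6% in sham, 32.8%, 29.1% and 30.7% in TAC and 13.4%, 16.3% and 19.4% in fetal. TAC shares thus lay above all sham and fetal shares, and fetal overlapped with sham. These shares are a description and were not tested.

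Succinate dehydrogenase is both an enzyme of the cycle and complex II of the respiratory chain. Sdha encodes its flavoprotein, which oxidises succinate, and Sdhd encodes a small subunit that anchors the enzyme in the inner membrane. Sdha lies on chromosome 1 of rn4, between 29739359 and 29764329. Its level was 1054.4, 1164.6 and 1381.0 in sham, then 876.9, 1240.3 and 1135.6 in the TAC libraries and 410.5, 591.8 and 451.4 in the fetal libraries. All fetal values were below the lowest adult library, TAC replicate 1. The log2 change was -1.32 (SE 0.22, adjusted p = 0.0014) in fetal against sham and -1.16 (adjusted p = 0.00266) in fetal against TAC. Sdhd lies on chromosome 8 of rn4, between 53955067 and 53964583. Its level was 929.2, 818.2 and 933.0 in sham, then 970.2, 876.0 and 897.4 in the TAC libraries and 371.7, 457.7 and 463.6 in the fetal libraries. Its adult values were the most even of the 8 genes relative to their mean, and the fetal values lay far below them. Its log2 change was -1.05 (SE 0.16, adjusted p = 0.000789) in fetal against sham and -1.09 (adjusted p = 0.000674) in fetal against TAC. Both genes were called in all 22 alternatives of both fetal comparisons. Newly assembled transcripts held 28.3% to 41.5% of Sdha in 5 libraries, with lengths of 2888 to 3023 nt. These libraries came from all 3 groups, and whether the transcripts are 1 shared form was not tested. For Sdhd such transcripts held 15.5% to 38.2% in TAC replicate 3 and fetal replicates 2 and 3. The ratio of Sdhd to Sdha was 0.75 ± 0.11 in sham, 0.87 ± 0.21 in TAC and 0.90 ± 0.13 in fetal. It differed by 0.26 on the log2 scale between fetal and sham (exact permutation test, two-sided, p = 0.2), by 0.07 between fetal and TAC (p = 0.8) and by 0.19 between TAC and sham (p = 0.5). Over the 6 ratio tests the lowest adjusted p was 0.9, and since none could go below 0.1 before adjustment, these tests could not pass 0.05 whatever the balance of the subunits.

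Fh1 encodes fumarate hydratase, which turns fumarate into malate, and Mdh2 the mitochondrial malate dehydrogenase, which regenerates oxaloacetate and also serves the malate-aspartate shuttle. Fh1 lies on chromosome 13 of rn4, between 91329842 and 91355746. Its level was 356.0, 497.8 and 523.0 in sham, then 356.9, 410.7 and 457.8 in the TAC libraries and 214.0, 243.3 and 207.2 in the fetal libraries. The replicate 1 libraries were the lowest of both adult groups and still lay above all fetal values. The fitted log2 change came to -1.03 (SE 0.18, adjusted p = 0.00213) in fetal against sham and -0.88 (adjusted p = 0.00482) in fetal against TAC, and the second was not called on reference transcripts alone (adjusted p = 0.067). All of the value of Fh1 came from its single named transcript in every library. Mdh2 lies on chromosome 12 of rn4, between 22021302 and 22034264. Its level was 1684.1, 1728.5 and 1373.4 in sham, then 1654.1, 2014.1 and 1675.7 in the TAC libraries and 635.7, 811.8 and 887.1 in the fetal libraries. TAC replicate 2 was the highest library, and no fetal library came near an adult one. The log2 change was -1.04 (SE 0.21, adjusted p = 0.00359) in fetal against sham and -1.20 (adjusted p = 0.00176) in fetal against TAC. Mdh2 was called in both comparisons in all 22 alternatives, and its named transcript held all of its value except in fetal replicate 3 (50.2%).

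In order of mean level, sham ran Mdh2, Sdha, Sdhd, Sucla2, Pdhb, Pdha1, Fh1 and Idh3a, and TAC had the same order. In sham only Sdha and Sdhd, and Sdhd and Sucla2, were neighbours without overlapping ranges. In TAC this held for Mdh2 and Sdha and for Sdhd and Sucla2. The fetal order ran Mdh2, Sdha, Sdhd, Pdhb, Idh3a, Pdha1, Fh1 and Sucla2, with separate ranges between Mdh2 and Sdha and between Sdhd and Pdhb alone. Sucla2 thus had rank 4 in both adult groups and was last in fetal, and Idh3a was last in both adult groups and had rank 5 in fetal. Sucla2 made up 10.6% ± 1.21 of the summed level in sham, 10.1% ± 0.69 in TAC and 7.15% ± 0.84 in fetal, and Idh3a 5.69% ± 0.64, 6.13% ± 1.05 and 9.47% ± 0.35 (SD, n = 3). Each gene was also set against the geometric mean of the other 7, which does not depend on the scale of a library. On this log2 scale Idh3a was -1.10 ± 0.15 in sham, -0.95 ± 0.24 in TAC and -0.30 ± 0.03 in fetal. Sucla2 was -0.08 ± 0.14 in sham, -0.10 ± 0.16 in TAC and -0.77 ± 0.17 in fetal. For these genes the fetal libraries overlapped with neither adult group. For the other 6 they overlapped with both, and the difference between fetal and sham ran from -0.30 (Sdha) to 0.24 (Pdha1). These relative values were not tested.

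**Figure D3:**
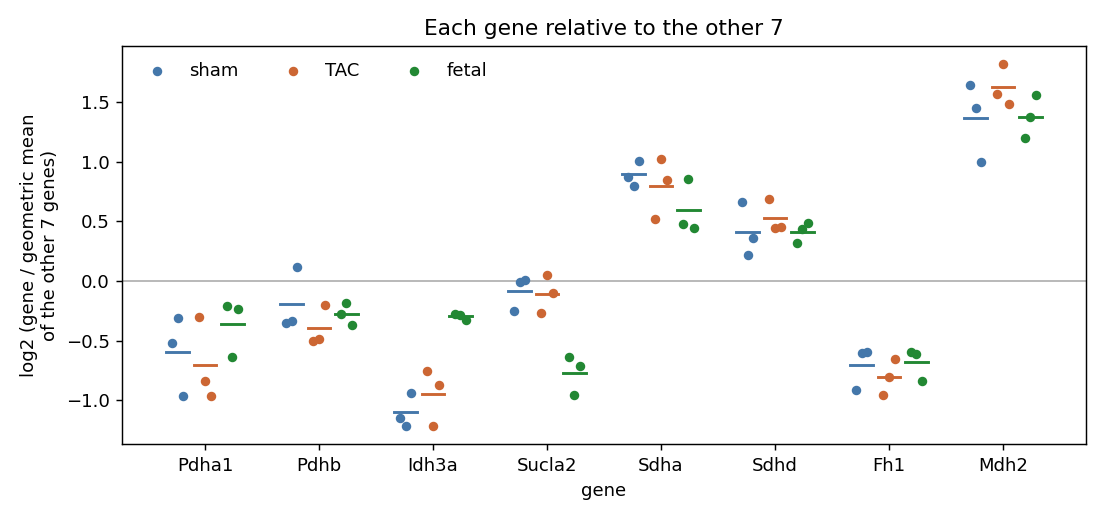
Log2 of each gene over the geometric mean of the other 7 genes in the same library, with 1 point per library and a bar at the group mean. Fetal points lie above all adult points for Idh3a and below them for Sucla2, and overlap with adult points for the other 6 genes.

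Under pressure overload no gene of the 8 passed the test against sham. Limma called 0 of 8, with 0 of 8 at an unadjusted p below 0.05, where 2 of 14117 loci were called and 611 had an unadjusted p below 0.05. The mean was lower in TAC for Pdha1, Pdhb, Sucla2, Sdha and Fh1 and higher for Idh3a, Sdhd and Mdh2, and the groups overlapped for all 8. The log2 changes ran from -0.24 for Pdhb (95% interval -0.71 to 0.22, adjusted p = 1) to 0.16 for Mdh2 (-0.31 to 0.63, adjusted p = 1), and the smallest unadjusted p was 0.261. Each of the 8 intervals included 0, and together they reached from -0.71 to 0.63, with the lowest bound for Pdhb and the highest for Mdh2. These bounds are not a detection limit, and the smallest change detectable with 3 libraries per group was not tested. The direction was not stable for Pdha1, Idh3a, Sucla2, Sdha and Sdhd, which changed sign in at least 1 alternative, Idh3a and Sdhd under equal library totals and an equal upper quartile. The test of fetal against TAC, given above for each gene, is the direct comparison of these groups.

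Other genes around the cycle were read from lists of names. Of 14 further subunits of the cycle and of pyruvate dehydrogenase, 2 could be looked up by symbol. Suclg2, the beta subunit of the GTP-forming succinyl-CoA synthetase and so the counterpart of Sucla2, fell from 216.2 ± 20.5 in sham to 166.7 ± 8.05 in fetal (log2 change -0.37, limma adjusted p = 0.0382), a call that was lost in 13 of 22 alternatives. The less abundant Ogdhl, related to the 2-oxoglutarate dehydrogenase subunit Ogdh, rose from 4.92, 3.43 and 3.66 in sham to a mean of 12.6 ± 5.96 in fetal (1.36, adjusted p = 0.00672). On reference transcripts alone Ogdhl turned to -1.38 in fetal against sham and -0.83 in fetal against TAC, neither of them called (adjusted p = 0.174 and 0.414). Against TAC, Ogdhl (1.86, adjusted p = 0.00142) was called and Suclg2 was not.

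In the list of genes that feed or control pyruvate dehydrogenase, 4 of 6 measured were called lower and 1 higher in fetal against sham. The same counts held against TAC. Over all loci 23.2% were called lower and 22.6% higher against sham, and 23.0% and 22.9% against TAC. The list's median was -1.56. Brp44l, now named Mpc1, a subunit of the carrier that brings pyruvate into the mitochondrion, fell from 839.7 ± 149.1 to 183.1 ± 27.2 (-2.18, adjusted p = 3.77e-05). Its partner Brp44, now Mpc2, was named after its values were seen and fell from 523.8 ± 189.3 to 114.2 ± 22.5 (-2.15, adjusted p = 0.00133). Pdp2, a phosphatase that switches the complex on, fell from 24.8 ± 3.52 to 6.54 ± 1.12 (-1.78, adjusted p = 0.000174). Pdk3, a kinase that switches it off, rose from 3.44 ± 1.56 to 31.8 ± 5.90 (2.94, adjusted p = 0.000214). Lias, which makes the lipoyl group that the complex needs, fell from 64.0 ± 10.8 to 24.4 ± 2.10 (-1.34, adjusted p = 0.000192). Against TAC these calls were -2.26 for Brp44l (adjusted p = 3.33e-05), -1.77 for Pdp2 (0.000181), 2.80 for Pdk3 (0.000284) and -1.09 for Lias (0.000603). The Brp44l call against TAC was lost on reference transcripts alone (-1.44, adjusted p = 0.105). No gene of this list was called in TAC against sham, where Lias had the lowest unadjusted p (0.134, log2 change -0.25).

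Another list held genes that supply or drain intermediates or carry electrons by the malate-aspartate shuttle. Of 11 measured, 7 were called lower and 2 higher in fetal against sham, with a median of -1.01. Against TAC the counts were also 7 and 2. Over all loci 23.2% were called lower and 22.6% higher against sham, and 23.0% and 22.9% against TAC. The 2 of 11 called higher are thus near the share of all loci. Me1, the cytosolic malic enzyme, fell from 126.1 ± 13.1 to 9.62 ± 3.73 (-3.64, adjusted p = 1.4e-05). Oxct1, which activates ketone bodies for entry into the cycle, fell from 1750.2 ± 172.4 to 417.5 ± 45.5 (-2.07, adjusted p = 3.35e-05). The cytosolic aspartate aminotransferase Got1 fell from 730.9 ± 86.1 to 211.7 ± 24.8 (-1.78, adjusted p = 4.74e-05). The mitochondrial malic enzyme Me2 rose from 5.51 ± 0.46 to 22.5 ± 3.07 (1.85, adjusted p = 0.000121). Against TAC, Me1 (-3.48, adjusted p = 1.77e-05), Oxct1 (-2.05, adjusted p = 3.7e-05) and Got1 (-1.82, adjusted p = 4.36e-05) were lower. Acly, which splits citrate in the cytosol, was higher (1.08, adjusted p = 0.00048), and on reference transcripts alone it had a log2 change of 1.10 that was not called (adjusted p = 0.573). In TAC against sham none was called, and Me2 had the lowest unadjusted p, with 10.9, 7.06 and 9.03 in TAC (0.60, unadjusted p = 0.0129, adjusted p = 1).

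Of genes of the outer membrane and of general mitochondrial content, 2 of 8 measured were called lower in fetal against sham. That share is near the 23.2% of all loci called lower. The median of the list was -0.29, against 0.04 for all loci. The channel gene Vdac2 fell from 470.1 ± 50.2 to 293.7 ± 76.4 (-0.70, adjusted p = 0.0171), and the weakly measured Vdac1 from 10.1 ± 8.03 to 2.10 ± 0.92 (-1.66, adjusted p = 0.0299). Each of these calls was lost in 6 of 22 alternatives, and that of Vdac2 against TAC (-0.54, adjusted p = 0.0477) in 14. The sum over the list lay between 1896 and 2278 in sham, between 1859 and 1971 in TAC and between 1576 and 1959 in fetal, so fetal and adult libraries overlapped. Of regulators of mitochondrial biogenesis 3 of 11 could be looked up. Esrra, the estrogen-related receptor alpha that binds promoters of many mitochondrial genes, fell from 114.8 ± 24.5 in sham to 27.0 ± 7.69 in fetal (-2.07, adjusted p = 0.000384), with 93.3 ± 21.5 in TAC (fetal against TAC -1.77, adjusted p = 0.000919). In TAC against sham no gene of these lists was called, and Vdac1 (-1.13, unadjusted p = 0.0589), Esrrb (-0.42, unadjusted p = 0.152) and, among the cycle subunits, Ogdhl (-0.50, unadjusted p = 0.136) had the lowest unadjusted p of their lists.

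**Figure D4:**
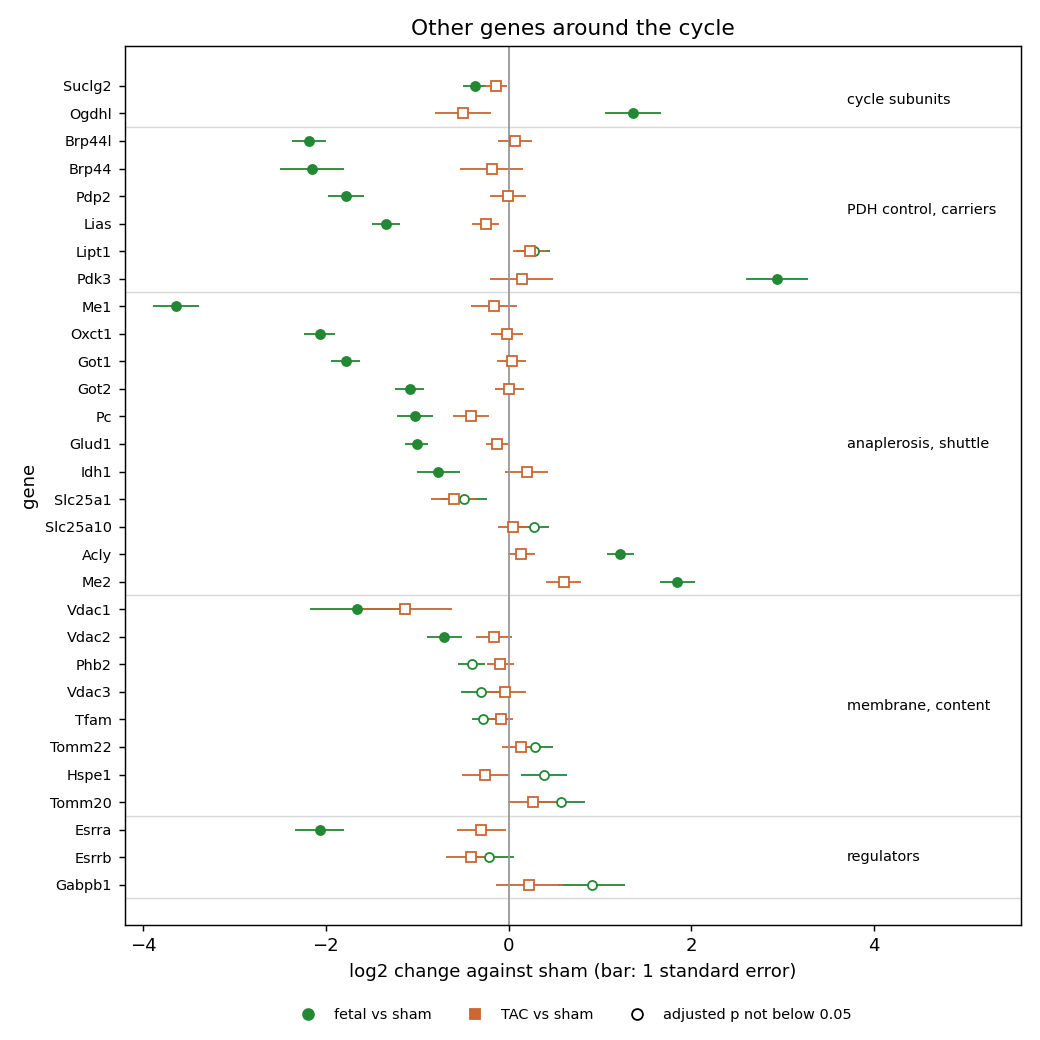
Log2 change against sham in fetal (circles) and TAC (squares) libraries for the measured genes of 5 lists around the cycle, with bars of 1 standard error and filled marks where the adjusted p is below 0.05. Filled fetal marks spread from -3.64 (Me1) to 2.94 (Pdk3), and no TAC mark is filled.

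Markers of other cell types also differed between fetal and adult libraries, and their part in the differences above was not tested. The counts below are of markers called in fetal against sham, where 23.2% of all loci were called lower and 22.6% higher. All 6 measured macrophage markers were lower in fetal against sham, with a summed level of 57.9 to 68.2 in fetal, 274.1 to 506.6 in sham and 293.2 to 485.6 in TAC. Of 5 fibroblast markers 4 were lower, with sums of 184.0 to 239.4 in fetal, 1006 to 1438 in sham and 1442 to 1513 in TAC. Of 4 endothelial markers 3 were lower, with sums of 93.9 to 170.3 in fetal, 161.6 to 283.1 in sham and 193.4 to 295.1 in TAC. Of 4 erythroid markers 1 was higher, the embryonic globin Hbe1, a share near that of all loci. Against TAC, Hba-a2 was called higher as well (log2 change 1.66, limma adjusted p = 0.0312). Erythroid sums were 17027 to 27186 in fetal, 5014 to 12528 in sham and 4956 to 10077 in TAC. Hbe1 was listed at 0 in replicates 2 and 3 of both adult groups. Of 2 smooth muscle markers 1 was higher, with sums of 152.3 to 209.5 in fetal, 60.0 to 196.0 in sham and 55.8 to 119.0 in TAC. Of 3 epicardial markers 2 were higher, with sums of 32.8 to 47.5 in fetal, 9.18 to 13.3 in sham and 11.7 to 14.4 in TAC. Of the 2 cardiomyocyte markers Mb was lower (log2 change -4.32, adjusted p = 6.62e-05) and Actc1 was not called (0.58, adjusted p = 0.632). None of these markers was called in TAC against sham.

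Across the 9 libraries, the loci whose log2 level followed the mean of the 8 genes most closely were Tuba4a (Pearson r = 0.996), Acss2 (0.996), Tpsab1 (0.995), Tmem186 (0.995), Ndufs3 (0.994) and Acadm (0.994). Tuba4a encodes an alpha tubulin, Acss2 an acetyl-CoA synthetase, Tpsab1 a mast cell tryptase, Ndufs3 a subunit of respiratory complex I and Acadm an enzyme of fatty acid oxidation. Their fetal means were low against sham, for example 101.4 ± 15.2 against 773.8 ± 186.6 for Tuba4a and 115.4 ± 12.7 against 1233 ± 185.8 for Acadm. Tpsab1 stood at only 0.35 ± 0.07 in fetal and 4.66 ± 1.05 in sham. Among the tested loci outside the 8 genes, 1020 (622 of them with a symbol) had an r above 0.95, so a close match was common, and the points share the split between 3 fetal and 6 adult libraries. Among the 8 genes themselves r with their mean ran from 0.82 (Idh3a) and 0.85 (Pdha1) to 0.99 (Sucla2).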

How the data were processed

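RNA from 9 rat heart libraries (3 sham, 3 TAC, 3 fetal, grouped by title or developmental stage) was made into TruSeq libraries, per the labels' protocols. Reads were processed with TopHat 1.3.1, Cufflinks 1.0.3 and Cuffdiff against rn4, per the submitters' processing notes. The deposited FPKM values per gene and transcript carry a further constant in each library, and were therefore rescaled by the median of ratios over 13164 loci above 0 in every library, to a mean library total of 1000000. Gene names differ between libraries, so loci were joined through 39492 reference transcripts that the assemblies keep, and transcripts were put in 1 locus if 5 or more libraries gave them the same gene. Of the resulting 29328 loci, 24662 of at least 200 nt were kept and 16567 have a symbol from the deposited files. The value of a locus adds its reference transcripts to those newly assembled in the same gene. Transcript lengths, as the authors' tables give them, were used for this filter and for the implied fragments per library. Coordinates are rn4 as deposited, counted from 1, and give the span common to all libraries.

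Loci that reached 1 in 3 or more libraries entered the test, made with limma 3.58.1 (lmFit, eBayes with trend, R 4.3.3) on log2(value + 1) in 1 fit of all 9 libraries, with Benjamini-Hochberg adjustment over 14117 loci. This scale understates changes of weakly expressed genes. The fit was also run on simulated data with independent noise in each library, to check that known changes were recovered. That run does not cover deviations shared between libraries, so it does not bear on the calls made here. Ratios of subunits were compared by exact permutation. The 8 genes, the lists and the tests were chosen with earlier results of these data known, and so were the rules for names: up to 4 genes with the lowest adjusted p of each list and comparison, or the 1 with the lowest p where none passed, and the 6 loci most correlated with the 8 genes. Same-numbered libraries deviated together in every pair of groups after removal of the group means (correlations 0.48, 0.24 and 0.18 for TAC and fetal, 0.52, 0.28 and 0.15 for TAC and sham, 0.47, 0.22 and 0.17 for fetal and sham). Replicates 2 and 3 did so across unlike numbers as well, with correlations of 0.13 to 0.28. The values thus set replicate 1 apart from 2 and 3 and do not show pairing by number. A fit with the replicate as a block was run all the same. Other alternatives were each library left out, replicate 1 against 2 and 3 as a covariate, replicates 2 and 3 alone, pseudocounts, filters, scalings, fits of the 2 groups alone, no variance trend, library weights and reference transcripts only. The same alternatives for genes outside the 8 were added after the data were seen. The list of further cycle subunits was reduced by 1 gene, which is not reported here.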

Additional observations from a re-analysis of the deposited data

How the results depend on the processing

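With a replicate block the counts of called genes stayed at 7 for fetal against sham, 0 for TAC against sham and 7 for fetal against TAC, and no call of the 8 genes changed (Pdha1 in fetal against sham, adjusted p = 0.0134 with the block; Idh3a, 0.116). Over all 22 alternatives the count was 6 or 7 in fetal against sham and 0 in TAC against sham. In fetal against TAC it was 6 or 7 except on reference transcripts only, where it was 4. That setting tests 13112 loci without the newly assembled transcripts. It calls 2055, 41 and 2137 loci in the 3 comparisons, against 6463, 2 and 6469. In TAC against sham, replicates 2 and 3 alone called 11 loci. Settings other than this and reference transcripts only called between 1 and 5. The cause was not tested for any change below. The ratio of Pdhb to Pdha1 changed sign in fetal against sham (leaving out 1 library, -0.47 to 0.012), in TAC against sham (-0.29 to 0.21, and 0.026 with replicates 2 and 3 alone) and in fetal against TAC (-0.42 to 0.0066, and 0.47 on reference transcripts only). The ratio of Sdhd to Sdha changed sign in TAC against sham (-0.0014 to 0.32, and -0.22 on reference transcripts only), in fetal against TAC (-0.061 to 0.26) and in fetal against sham (-0.032 on reference transcripts only). Idh3a in fetal against sham was 0.0053 on reference transcripts only. In TAC against sham, signs changed on reference transcripts only for Pdha1 (0.32), Sdha (0.013) and Sdhd (-0.21), and with equal library totals and an equal upper quartile for Idh3a (-0.0040 and -0.0086) and Sdhd (-0.034 and -0.039). They also changed for Idh3a with replicates 2 and 3 alone (-0.094) and on leaving out 1 library for Idh3a (-0.036 to 0.19, without sham replicate 1), Sucla2 (-0.24 to 0.010, without TAC replicate 1 or sham replicate 3) and Sdhd (-0.027 to 0.067, without TAC replicate 1 or sham replicate 2), where the libraries named are those that turned the sign. Among the other named genes, reference transcripts only turned Ogdhl (-1.38 in fetal against sham, -0.83 in fetal against TAC) and Esrrb in TAC against sham (2.92). The 95% intervals of the TAC changes, which together reach from -0.71 to 0.63, and deposited confidence bounds of up to 21.6% of a value (Sdhd in TAC replicate 1) limit what can be read from small differences.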
